A study of Mus musculus with 6 samples.

Results

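The MEF2 factors, SRF and their coactivators are transcription regulators that switch on muscle genes in the heart. The 10 genes chosen were Mef2a, Mef2b, Mef2c, Mef2d, Srf, Myocd, Mkl1 (also named Mrtfa), Mkl2 (also named Mrtfb), Camta1 and Camta2. They were picked by name and found by their Ensembl identifiers among the 43629 genes counted. Of the 10 genes, 9 had reads, and the same 9 were among the 15470 genes that passed the filter on low counts and were tested. Mef2b had no read in any culture.

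MEF2 proteins and SRF belong to the MADS box family of DNA-binding proteins. MEF2 proteins bind A and T rich sites in the control regions of muscle genes, and class IIa histone deacetylases hold them in check until a kinase drives the deacetylases out of the nucleus. SRF binds the CArG box and takes its direction from its partners, since the ternary complex factors steer it to immediate early growth genes and the myocardin family steers it to muscle and cytoskeletal genes. Myocardin, the product of Myocd, is restricted to heart and smooth muscle, whereas the products of Mkl1 and Mkl2 are widely made and enter the nucleus when the pool of free actin shrinks. The CAMTA proteins are calmodulin-binding activators, and CAMTA2 is known as a partner of NKX2-5 on the gene of the atrial natriuretic peptide.

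Cardiomyocytes were isolated from E13.5 heart ventricles of CD-1 mice, with the ventricles of each litter pooled, and were cultured on a coated surface before transfection. DNMT1, the enzyme that copies DNA methylation to the new strand after replication, was knocked down with a pool of siRNAs against it at 12 nM, and the control cultures received AllStars negative control siRNA at 12 nM, both with lipofectamine RNAiMAX (n = 3 cultures each). After 72 h the cells were sorted with beads for VCAM1, a surface protein of embryonic cardiomyocytes, and poly(A) RNA was sequenced from all 6 cultures. The labels do not say whether the 3 cultures of a treatment came from separate litters, so a p-value measures the spread between these cultures only. The treatment tag of the DNMT1 siRNA cultures reads DNMT3a siRNA. Their titles and the design text name DNMT1 instead, and the titles were followed.

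Dnmt1 was checked first. Its normalized counts were 3446, 2759.5 and 2878 with negative siRNA and 772, 786 and 666 with DNMT1 siRNA (log2 fold change -2.03, SE 0.11, adjusted p = 0.000192 by edgeR's quasi-likelihood test), which left 24.5% of the control level. Dnmt3a was at 118% of its control level (log2 fold change 0.24, SE 0.08, adjusted p = 0.0919) and for Dnmt3b the log2 fold change was 0.21 (SE 0.17, adjusted p = 0.444). The values of Dnmt1 and Dnmt3a go with the titles and not with the tag. Counts on genes ranged from 27852412 to 35896018 with negative siRNA and from 13739561 to 16186310 with DNMT1 siRNA, so the DNMT1 siRNA libraries were the shallower ones in every case. Among uniquely mapped reads, 16.4% ± 1.58 lay outside exons with negative siRNA and 29.3% ± 4.23 with DNMT1 siRNA (n = 3 each, ± SD), and the part of this difference in the results below was not tested. All 9 cardiomyocyte markers were detected, and their summed level was 2317 to 2921 CPM (counts scaled to a common library total) with negative siRNA and 5073 to 6180 CPM with DNMT1 siRNA. The 6 fibroblast markers summed to 35830 to 55440 CPM with negative siRNA and 27180 to 29000 CPM with DNMT1 siRNA, so transcripts known from fibroblasts outweighed those of the cardiomyocyte list in every culture. Negative siRNA replicate 2 stood apart from replicates 1 and 3, with the highest summed level of the fibroblast, smooth muscle, endothelial and cardiomyocyte markers of its group, and values without it are given beside the results it moves most.

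As a group, the 9 detected genes were at or above their control level after DNMT1 knockdown, by small amounts. The largest difference was that of Myocd, which rose 1.51-fold, and it was the 1 gene of the 9 that passed both limits of the study, an adjusted p below 0.05 and a fold change above 1.5. No gene passed both limits downward. Across all genes tested, 4.26% passed both limits upward and 2.23% downward. Mkl1 and Camta2 had adjusted p values below 0.05 with fold changes under 1.5, which made 3 of 9 genes past the p limit alone, beside 6.81% of all genes tested in that direction, and 0 of 9 past it downward, beside 5.65%. The log2 fold change was above 0 in 9 of 9 genes, beside 49.3% of all genes tested, with a median of 0.19 over the 9 genes and of -0.0049 over all genes. In 7 of the 9 genes every DNMT1 siRNA culture lay above every negative siRNA culture, beside 18.3% of all genes, and in 0 of the 9 every DNMT1 siRNA culture lay below, beside 17.7%. Here and below a normalized count is the read count scaled to the geometric mean of the effective sizes of the 6 libraries. The adjusted p is that of edgeR's quasi-likelihood test after Benjamini-Hochberg adjustment over all 15470 genes. In RNA pooled from all sorted cells of a culture, more cells of a type and more RNA of a gene per cell cannot be told apart.

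**Figure D1:**
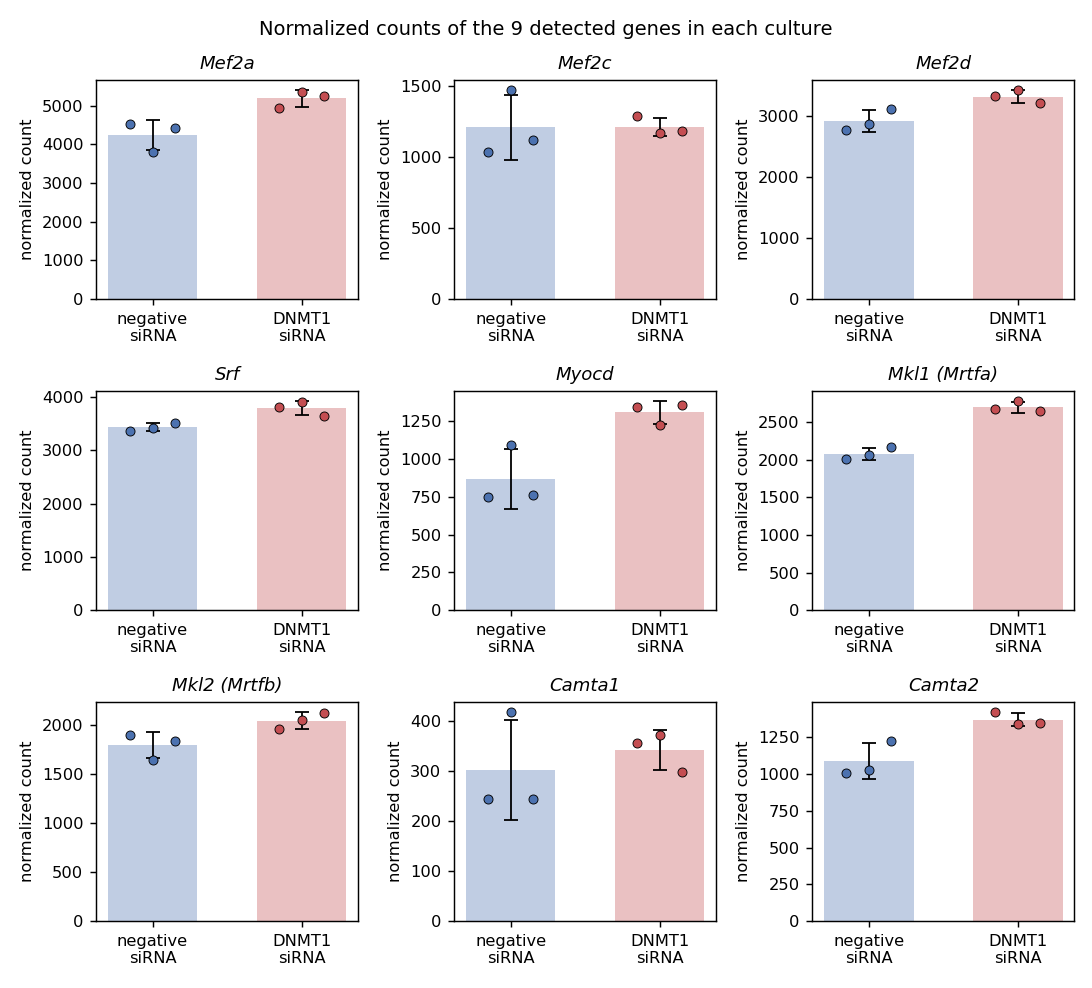
Normalized counts of the 9 detected genes in each culture, 1 panel per gene, with negative siRNA in blue and DNMT1 siRNA in red. Points are cultures, bars are means and error bars are the SD over 3 cultures, and the points of the groups overlap only for Mef2c and Camta1.

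The genes differed widely in level. Expressed per kilobase of merged exons (RPKM), which allows genes of unequal length to be compared, Srf was the highest with 54.7 ± 1.22 RPKM in negative siRNA cultures (SD, n = 3), above 95.5% of the genes tested. Mef2d followed with 22.5 RPKM, Mkl1 with 15.7 RPKM and Mef2a with 13.3 RPKM. Camta2 and Mkl2 came next with 9.59 and 9.17 RPKM, and these neighbours overlapped in the negative siRNA cultures, so their order is not resolved. The other neighbours in the order did not overlap between genes in that group. Myocd was seventh with 6.22 RPKM, Mef2c had 3.55 RPKM and Camta1 0.955 RPKM, against a median of 4.49 RPKM over all genes tested. The order of the means was the same with DNMT1 siRNA, from 60.3 RPKM for Srf to 9.37 RPKM for Myocd, 3.56 RPKM for Mef2c and 1.08 RPKM for Camta1. A length of merged exons counts every annotated exon and untranslated end, so it lowers the RPKM of genes such as Mef2c (15715 bp) and Mef2a (14681 bp) where a culture uses only some of them.

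**Figure D2:**
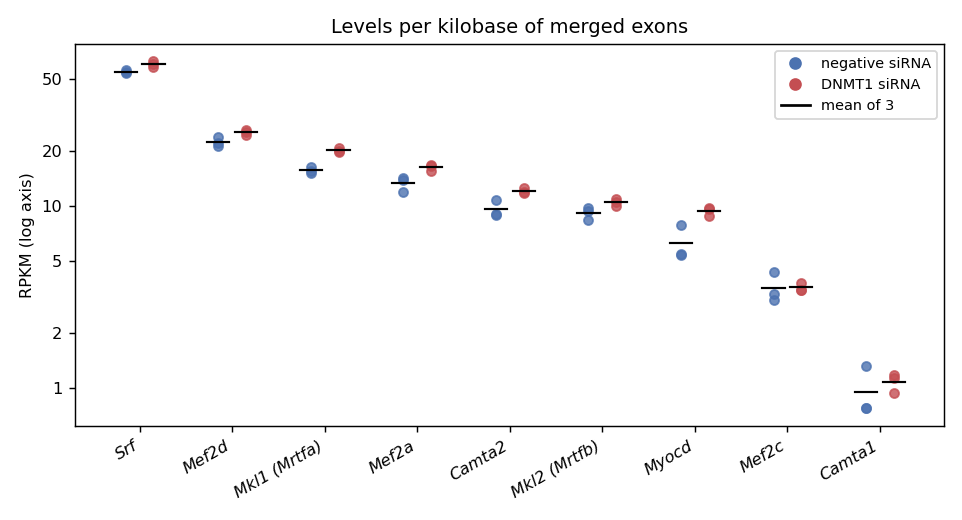
Level of each detected gene per kilobase of merged exons (RPKM, log axis) in each culture, ordered by the mean in negative siRNA cultures, with a line at the mean of 3 cultures. Srf stands highest in both groups and Camta1 lowest, and the order is the same in both groups.

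Among the MEF2 genes, Mef2d had the highest level per length and Mef2a the most reads, and no MEF2 gene passed the adjusted p limit. Mef2a (ENSMUSG00000030557, GRCm38, chr7:67231163-67372858, minus strand), which is made in most tissues and is the main MEF2 factor of the adult heart, had 4527, 3798 and 4414 normalized counts with negative siRNA and 4943, 5352 and 5252 with DNMT1 siRNA. All DNMT1 siRNA cultures were above all control cultures, and the log2 fold change was 0.29 (SE 0.08, 95% interval 0.10 to 0.48, adjusted p = 0.0565). Negative siRNA replicate 2 was the lowest of the controls, and without it the log2 fold change was 0.21 with an adjusted p of 0.0436. The start of Mef2a is of interest because it carries a MEF2 site of its own. It was searched for in promoter windows of 300 bases, 250 before and 50 after a transcription start, which RefSeq gives for GRCm38.p6. The site was taken as C or T, then TA, then 4 letters A or T, then TA, then A or G, on both strands, and it was found in 3.19% of the 32851 windows. The site in Mef2a begins 2 bases before the start (chr7:67372841-67372870, minus strand), shown 5′ to 3′ with the site in capitals.
Mef2a: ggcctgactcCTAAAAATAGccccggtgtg

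Mef2d (ENSMUSG00000001419, GRCm38, chr3:88142372-88172086, plus strand), whose product is a signal-responsive MEF2 factor of the stressed heart, had 2768, 2869.8 and 3116 normalized counts with negative siRNA and 3320.2, 3414 and 3201 with DNMT1 siRNA. The groups did not overlap, but the log2 fold change, 0.18, did not pass the limit (SE 0.07, 95% interval 0.03 to 0.34, adjusted p = 0.120). Of its merged exon bases, 8.87% are shared with 1700113A16Rik on the opposite strand, and since the library kit does not mark strand, reads of the pair cannot be told apart there. Mef2c (ENSMUSG00000005583, GRCm38, chr13:83504034-83667080, plus strand), which is required for the right ventricle and the looping heart, had 1038, 1472 and 1121 normalized counts with negative siRNA and 1289, 1173 and 1184 with DNMT1 siRNA. The highest Mef2c culture was negative siRNA replicate 2, the groups overlapped, and the log2 fold change was 0.01 (SE 0.13, adjusted p = 0.978). Its 95% interval, -0.29 to 0.30, leaves room for a difference of the size seen in Mef2a in either direction, and without negative siRNA replicate 2 the estimate was 0.17 (adjusted p = 0.150). Mef2b (ENSMUSG00000079033, GRCm38, chr8:70139711-70167488, plus strand), a MEF2 gene best known from lymphocytes, had 0 counts in each of the 6 libraries. A count of 0 allows up to 3 reads, which is 0.0836 to 0.218 CPM depending on the library, or at most 0.156 RPKM, and covers counting error only.

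The shares of the MEF2 family total overlapped between the groups for Mef2a, Mef2c and Mef2d alike. Mef2d made up 57.1% ± 1.61 of the summed MEF2 RPKM with negative siRNA and 56.2% ± 0.893 with DNMT1 siRNA (exact permutation p = 0.4, two-sided). Mef2a made up 33.9% ± 2.88 and 35.9% ± 1.202 (exact permutation p = 0.3), and Mef2c 9.05% ± 1.92 and 7.87% ± 0.519 (exact permutation p = 0.4, SD, n = 3 each). The order turns where counts are not divided by length, with Mef2a at 50.7% and Mef2d at 34.8% of MEF2 reads with negative siRNA and 53.4% and 34.1% with DNMT1 siRNA. With 3 cultures against 3, this test cannot give a p below 0.1. The summed MEF2 level was 38.5, 38.3 and 41.1 RPKM with negative siRNA and 44.8, 46.5 and 44.6 RPKM with DNMT1 siRNA, and these did not overlap.

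Srf (ENSMUSG00000015605, GRCm38, chr17:46548329-46556175, minus strand) was the highest of the genes and had the smallest spread among control cultures, with a coefficient of variation of 2.24%. It had 3367, 3425 and 3519.5 normalized counts with negative siRNA and 3804, 3911 and 3649 with DNMT1 siRNA. The groups did not overlap, and the log2 fold change was 0.14 (SE 0.06, 95% interval 0.00 to 0.28, adjusted p = 0.169), which did not pass the limit. The upper end of that interval lies under the 1.5-fold limit. Srf is known as a target of its own protein, and its promoter is shown because the CArG boxes through which this occurs lie within it. A CArG box was taken as CC, then 6 letters A or T, then GG, and reads as the same motif on both strands. Of all 32851 windows, 1.63% held at least 1 CArG box, and 6 windows (0.0183%) held 2 or more, the Srf window among them. The boxes of Srf begin 82 and 62 bases before the start. The stretch from 250 to 14 bases before the start (GRCm38.p6, chr17:46556176-46556412, minus strand) is shown 5′ to 3′ with the boxes in capitals.
Srf: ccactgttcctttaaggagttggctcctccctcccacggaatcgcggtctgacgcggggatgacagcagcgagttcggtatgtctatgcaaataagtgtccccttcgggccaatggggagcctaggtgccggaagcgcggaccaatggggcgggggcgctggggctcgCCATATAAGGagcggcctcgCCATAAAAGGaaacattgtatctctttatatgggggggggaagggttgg

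The Srf window also holds 25 CpG dinucleotides, more than 81.6% of all windows hold. The members' windows ranged from 1 CpG in a window of Mef2c to 35 CpGs in a window of Mkl2, against a median of 7 over all windows. RefSeq windows were matched for 9 of the 10 genes, with 15 windows in all, and Myocd has no entry. No member other than Srf held a CArG box in these windows, and apart from Mef2a only the third window of Mkl2 held a MEF2 site. That site begins 165 bases before an internal start (GRCm38.p6, chr16:13358246-13358275, plus strand), and it is shown beside that of Mef2a because these were the MEF2 sites found among the 10 genes.
Mkl2: gctagagattTTATTTTTAActgcttgact

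The myocardin family held both the gene with the largest fold and the gene with the lowest adjusted p of all 10. Myocd (ENSMUSG00000020542, GRCm38, chr11:65176561-65269989, minus strand), which encodes the strongest coactivator of SRF in heart and smooth muscle, had 748, 1094 and 759.7 normalized counts with negative siRNA. It had 1342, 1223 and 1357 with DNMT1 siRNA. Every DNMT1 siRNA culture was above every control culture, and the nearest values were negative siRNA replicate 2 and DNMT1 siRNA replicate 2. Myocd rose by 0.59 on the log2 scale (SE 0.15, 95% interval 0.26 to 0.93, adjusted p = 0.0361), a 1.51-fold difference that sits at the 1.5-fold limit. Without negative siRNA replicate 2 the log2 fold change was 0.79 (adjusted p = 0.00026). Leaving out any other culture took the adjusted p above 0.05, to between 0.0665 and 0.137, and with the replicate number as a block it was 0.0570 at a log2 fold change of 0.61. With no filter on low counts the estimate of Myocd was 0.56, under the fold limit, at an adjusted p of 1.21e-06.

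Mkl1 (ENSMUSG00000042292, GRCm38, chr15:81012281-81190757, minus strand) encodes MRTF-A, which carries the state of the actin cytoskeleton to SRF. It had 2012, 2058 and 2166 normalized counts with negative siRNA and 2666, 2774 and 2641 with DNMT1 siRNA, the tightest groups among the members that passed the p limit. The log2 fold change of Mkl1 was 0.37 (SE 0.06, 95% interval 0.23 to 0.52), and its adjusted p of 0.00906 was the lowest of the 10 genes. Its whole interval lies under the 1.5-fold limit. The adjusted p stayed at or under 0.0157 when any negative siRNA culture was left out and was 0.0544 to 0.0718 when any DNMT1 siRNA culture was left out. Mkl2 (ENSMUSG00000009569, GRCm38, chr16:13256481-13417529, plus strand), which encodes MRTF-B, had 1891, 1642 and 1836 normalized counts with negative siRNA and 1952, 2049 and 2118 with DNMT1 siRNA. The Mkl2 groups did not overlap, and the log2 fold change was 0.19 (SE 0.08, 95% interval 0.01 to 0.36, adjusted p = 0.144).

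**Figure D3:**
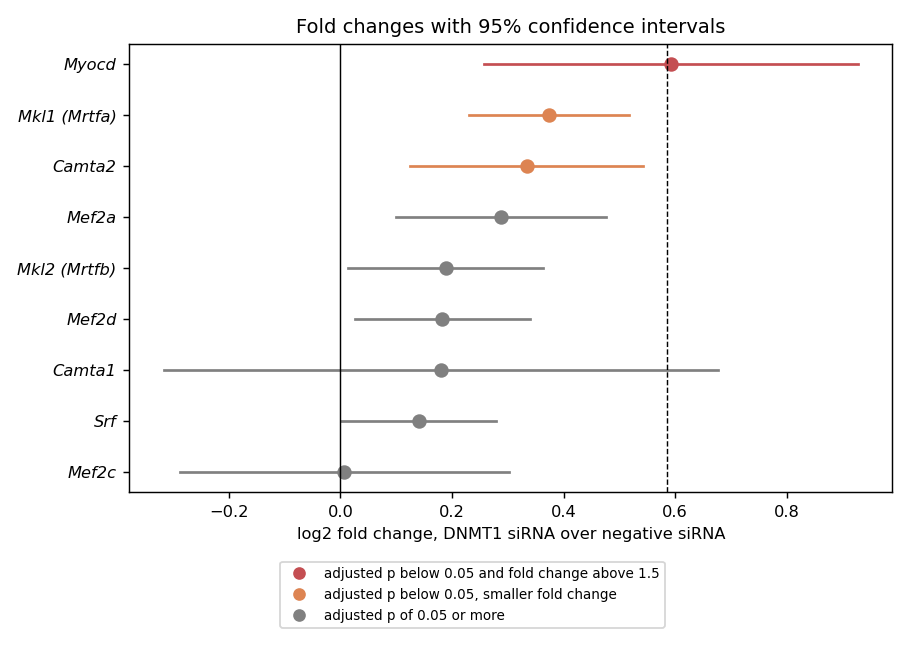
Log2 fold change of each detected gene, DNMT1 siRNA over negative siRNA, with its 95% interval (edgeR quasi-likelihood fit, 3 cultures each). The dashed line marks the 1.5-fold limit, which Myocd reaches at 0.59, and the intervals of Mef2c and Camta1 span 0.

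Within the family, the summed RPKM of Myocd, Mkl1 and Mkl2 was 30.2, 31.8 and 31.2 with negative siRNA and 39.7, 40.2 and 40.5 with DNMT1 siRNA, so the groups were far apart relative to their spread. Mkl1 made up 50.4% ± 1.79 of this sum with negative siRNA and 50.6% ± 1.44 with DNMT1 siRNA (exact permutation p = 0.8). The share of Myocd was 19.98% ± 4.09 and 23.4% ± 1.34 (exact permutation p = 0.4), and that of Mkl2 was 29.6% ± 2.84 and 26.05% ± 0.812 (exact permutation p = 0.2, SD, n = 3 each). The shares overlapped between the groups, with the same smallest possible p of 0.1, and negative siRNA replicate 2 had the highest share of Myocd, 24.7%, of the 6 cultures. Without that culture the share of Myocd differed by 5.75 percentage points and that of Mkl2 by -5.08 percentage points.

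Camta2 (ENSMUSG00000040712, GRCm38, chr11:70669463-70688105, minus strand) encodes a coactivator known from cardiac growth. It had 1004, 1025 and 1225 normalized counts with negative siRNA and 1415, 1338 and 1344 with DNMT1 siRNA. The groups did not overlap, and the log2 fold change was 0.33 (SE 0.09, 95% interval 0.12 to 0.54, adjusted p = 0.0490), past the p limit but under the fold limit. Camta2 lay so near to the p limit that RLE normalization in place of TMM gave 0.0517, and its adjusted p was above 0.05 on leaving out any culture but negative siRNA replicate 3. Camta1 (ENSMUSG00000014592, GRCm38, chr4:150917322-151861876, minus strand), the relative best known from the nervous system, had 245, 417 and 245 normalized counts with negative siRNA and 357, 372 and 298 with DNMT1 siRNA. Negative siRNA replicate 2 was the highest Camta1 culture of all 6, the groups overlapped, and the log2 fold change was 0.18 (SE 0.22, 95% interval -0.32 to 0.68, adjusted p = 0.620). Without that culture the Camta1 estimate was 0.48 with an adjusted p of 0.0295. Negative siRNA replicate 2 was thus above the other control cultures for Myocd, Mef2c and Camta1 and below them for Mef2a and Mkl2.

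**Figure D4:**
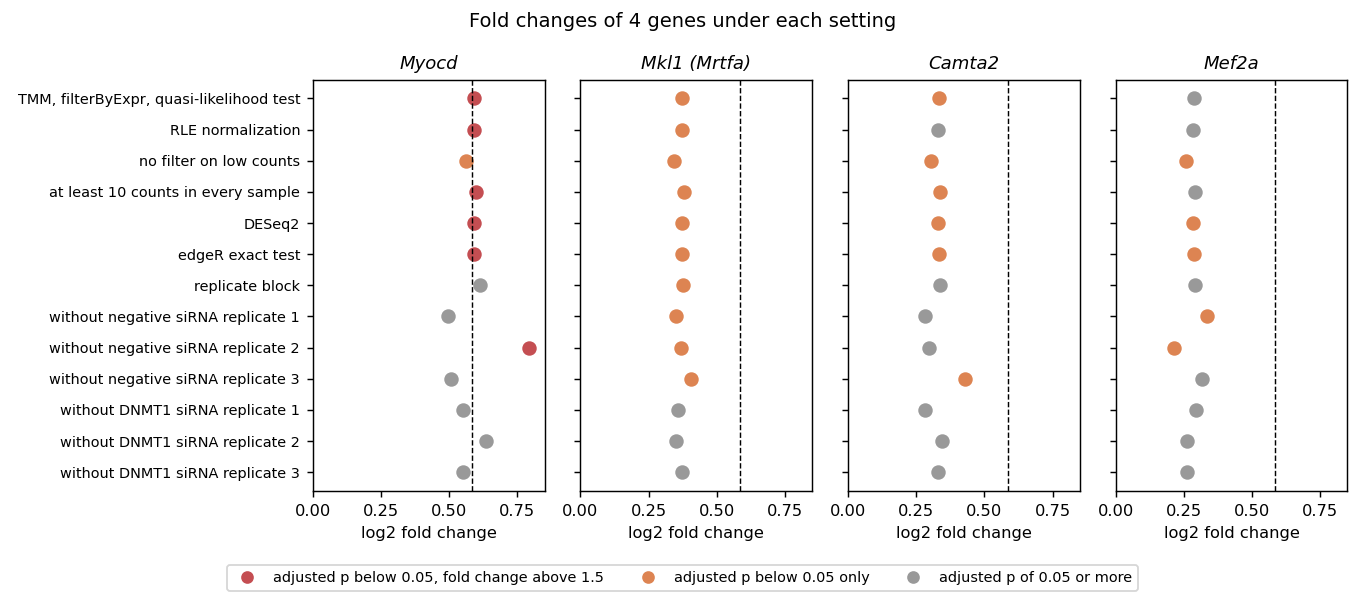
Log2 fold change of Myocd, Mkl1, Camta2 and Mef2a with TMM, the filter and the quasi-likelihood test (top line) and under each other setting, coloured by the limits passed. The dashed line marks the 1.5-fold limit, and the largest Myocd value, 0.79, is that without negative siRNA replicate 2.

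The genes whose profile over the 6 cultures lay nearest to that of Mkl1, the gene with the lowest adjusted p, were Paf1, Nisch and Fgfrl1. Likeness was the root mean square difference of centred log2 CPM over the 6 cultures, which was 0.0210 for Paf1, 0.0226 for Nisch and 0.0266 for Fgfrl1 among 12737 genes compared. Paf1, a subunit of the complex that travels with RNA polymerase II, was at 0.36 on the log2 scale (SE 0.06). Nisch had 0.39 (SE 0.07) and Fgfrl1, an FGF receptor without a kinase domain, had 0.38 (SE 0.07). The measure of likeness includes the difference between the groups, so folds near that of Mkl1 follow from the choice.

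The fold of the coactivators was set beside the level of the cardiomyocyte markers, because 7 of the 9 markers rose past both limits with DNMT1 siRNA, beside 4.26% of all genes tested. The others were Vcam1, the antigen of the sort, whose DNMT1 siRNA cultures all lay below the controls (log2 fold change -0.26, SE 0.11, adjusted p = 0.148), and Myh7, whose groups overlapped (0.20, adjusted p = 0.787, and 0.99 without negative siRNA replicate 2, adjusted p = 0.00194). Per 1000 CPM of summed markers, Myocd was at 14.9, 17.2 and 13.3 CPM with negative siRNA and 10.0, 9.46 and 12.3 CPM with DNMT1 siRNA, so relative to that sum it was lower and not higher. On the same scale the mean of Mkl1 was 36.8 CPM with negative siRNA and 21.8 CPM with DNMT1 siRNA, that of Camta2 19.2 and 11.03 CPM, that of Mef2a 75.8 and 42.0 CPM and that of Mef2c 21.2 and 9.81 CPM. All 5 genes therefore had a smaller fold than the summed markers. Because the sum itself rose, any gene with a smaller fold comes out lower on this scale. The scale is therefore no separate measure of how many cardiomyocytes a culture held. Over all genes tested 4.26% passed both limits upward and 2.23% downward, so 0 or 1 call in a list of 4 to 6 markers says little. The markers of other cells moved too, with 3 of 6 fibroblast markers lower (Col1a1, Col1a2 and Dcn) and 2 of 7 endothelial markers higher (Kdr and Emcn) past both limits. Tek, another endothelial marker, passed the p limit in the other direction under the fold limit (log2 fold change -0.35, adjusted p = 0.0373). Without negative siRNA replicate 2, Dcn alone of the fibroblast markers passed both limits, since Col1a1 and Col1a2 were at -0.42 and -0.44 on the log2 scale, and 6 of the 7 endothelial markers did so upward. Of all genes, 823 were called upward and 422 downward without that culture, beside 659 and 345 with all cultures. None of the 4 smooth muscle markers passed both limits, with a summed level of 4942 to 7615 CPM and 4208 to 4401 CPM, and none of the 5 epicardial markers did, with 1295 to 1484 CPM and 1391 to 1448 CPM. Of 6 macrophage markers 1 was lower (Lyz2, and 0 without negative siRNA replicate 2), with sums of 14.5 to 36.2 CPM and 12.2 to 17.4 CPM, and the endothelial sum was 62.5 to 104.9 CPM and 99.9 to 117.7 CPM. Erythroid markers were at or near 0 in all cultures, with Hba-a2 at 0 throughout. The part of these cell types in the differences of Myocd, Mkl1 and Camta2 was not tested.

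The regulators of MEF2 gave no call. Of 16 genes, which included the class IIa deacetylases, their kinases and the coactivators of MEF2, 0 passed both limits in either direction and 0 passed the adjusted p limit alone by edgeR's quasi-likelihood test, with a median of -0.12. The shares over all genes tested were 4.26% upward and 2.23% downward past both limits, and 6.81% and 5.65% past the p limit alone. At such shares, 0 calls among 16 genes says little about the list. The most abundant were Hdac7, a class IIa deacetylase (log2 fold change 0.01, SE 0.08, adjusted p = 0.966), and Ep300, an acetyltransferase that MEF2 recruits (log2 fold change 0.21, SE 0.06, adjusted p = 0.0682). Crebbp went the other way with the lowest adjusted p of the list (log2 fold change -0.26, SE 0.07, adjusted p = 0.0503). Hdac4 had a log2 fold change of -0.20, Hdac5 of 0.12 and Hdac9 of -0.45, none of them past the limit. Without negative siRNA replicate 1, Hdac9 passed both limits downward (log2 fold change -0.67, adjusted p = 0.0483), and without negative siRNA replicate 2 it was at -0.19. At an unadjusted p under 0.05 the list had 2 genes upward and 4 downward. The share of all genes tested at that limit was not counted, so no shift of the list is read from this. DESeq2 and edgeR's exact test also gave 0 calls.

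Among the partners of SRF, 1 of 11 tested genes passed both limits upward and 0 downward, beside 4.26% and 2.23% of all genes tested. Their median was 0.08, and Abra, with 4 to 16 raw reads, did not pass the filter. When negative siRNA replicate 2 was left out, Abra did pass it and was called upward (log2 fold change 2.10, adjusted p = 0.0320), as it was with no filter (1.52, adjusted p = 0.0335), which made 2 calls in the list. The gene called with all cultures was Hopx, a homeodomain protein without DNA binding that is known to bind SRF and restrain it. Hopx had 56.0, 128 and 85.5 normalized counts with negative siRNA and 274, 251 and 168 with DNMT1 siRNA, with no overlap (log2 fold change 1.37, SE 0.30, adjusted p = 0.0252). The counts of Hopx were low, between 96 and 204 raw reads, and the ternary complex factors Elk1, Elk3 and Elk4 had log2 fold changes of 0.09, -0.11 and -0.01. Hopx lost its call without negative siRNA replicate 3, DNMT1 siRNA replicate 1 or DNMT1 siRNA replicate 2. Hopx itself carries a CArG box that begins 83 bases before its start.

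The immediate early targets that SRF shares with the ternary complex factors gave 2 calls upward among 8 genes and 0 downward. Across all genes tested, 4.26% were called upward and 2.23% downward. The median of the list was 0.25. Fos rose by 0.71 on the log2 scale (SE 0.14, adjusted p = 0.0176) and Egr3 by 0.75 (SE 0.18, adjusted p = 0.0360). Fos lost its call without any of the DNMT1 siRNA cultures, and Egr3 did so too and also without negative siRNA replicate 3 and with the replicate number as a block. Mcl1 and Junb passed the p limit under the fold limit in opposite directions, with 0.24 (adjusted p = 0.0420) and -0.32 (adjusted p = 0.0331). The cytoskeletal targets of SRF and the MRTF proteins gave 0 calls in either direction among 13 genes, with a median of -0.11 by edgeR's quasi-likelihood test, and DESeq2 and the exact test gave 0 calls as well. At an unadjusted p under 0.05 there were 1 upward and 5 downward, again without a share over all genes to set beside them, so no shift of the list is read from these counts. Fhl1 alone passed the adjusted p limit (log2 fold change -0.32, adjusted p = 0.0249), beside 5.65% of all genes tested that did so downward. The most abundant of them were Flna, the actin crosslinker filamin A, at -0.25 on the log2 scale (SE 0.08, adjusted p = 0.0711) and Actb, cytoplasmic actin, at -0.26 (SE 0.08, adjusted p = 0.0807). Actg1 shares much of its sequence with near-identical copies and is uncertain. The log2 fold change was negative in 9 of these 13 targets, where 49.3% of all genes tested were above 0. It was positive in both Mkl1 and Mkl2, of which Mkl2 did not pass the p limit. A link between the coactivators and these targets was not tested.

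The smooth muscle targets of myocardin gave 0 calls in either direction among 11 genes, with a median of -0.36, by edgeR's quasi-likelihood test. Over all genes tested 4.26% were called upward and 2.23% downward, so 0 calls among 11 genes says little about the list. Past the adjusted p limit alone there were 1 upward and 2 downward, beside 6.81% and 5.65% of all genes tested. At an unadjusted p under 0.05 there were 1 upward and 6 downward, a limit for which the share over all genes was not counted, so no shift of the list is read from these counts. DESeq2 called Lmod1 lower while edgeR's exact test called Lmod1 and Cnn1 lower, genes named here after their values were seen. Without negative siRNA replicate 1, Cnn1, Lmod1 and Myh11 passed both limits downward (adjusted p = 0.0323, 0.00167 and 0.0440), and without negative siRNA replicate 3, Acta2 and Tagln did (adjusted p = 0.0287 and 0.0208). Without negative siRNA replicate 2 there were 0 calls in either direction, with log2 fold changes of -0.39 for Cnn1, which was -1.03 with all cultures, and of -0.36 for Myh11, which was -1.49. Acta2, smooth muscle actin, was at -0.51 on the log2 scale (SE 0.14, adjusted p = 0.0457), past the p limit but under the fold limit, and Tagln, the actin-binding protein transgelin, had -0.43 (SE 0.17, adjusted p = 0.128). Synpo2 was likewise past the p limit at -0.36 (adjusted p = 0.0291), and Mylk, which encodes myosin light chain kinase, at 0.42 (adjusted p = 0.0180). The 4 smooth muscle markers are all genes of this list, so the list does not stand apart from the level of those markers. Negative siRNA replicate 2 was the highest culture for Acta2 with 99836 normalized counts, beside 72548 and 69652 in the other controls and 55667 to 57698 with DNMT1 siRNA, and without it the log2 fold changes of Acta2 and Tagln were -0.32 and -0.22.

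The striated muscle targets with known MEF2 or SRF sites gave the most calls of the lists. All the lists were chosen with earlier results of these data known. Of the 15 striated muscle targets, 10 rose past both limits and 0 fell, beside 4.26% and 2.23% of all genes tested. Their median was 1.09. In 13 of 15 every DNMT1 siRNA culture lay above every negative siRNA culture, beside 18.3% of all genes. Leaving out negative siRNA replicate 2 gave 12, with Hrc and Hspb7 added. The largest were Nppa, which encodes atrial natriuretic peptide (log2 fold change 1.65, SE 0.19, adjusted p = 0.00230), Smpx, a small protein of striated muscle (1.62, SE 0.18, adjusted p = 0.00181), and Actc1, cardiac actin (1.54, SE 0.14, adjusted p = 0.00103). Several genes of this list also mark cardiomyocytes, among them Actc1 and Myh6, so the list and the summed markers do not measure separate things. The largest fold of a member, 1.51 in Myocd, compares with 3.15 in Nppa.

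**Figure D5:**
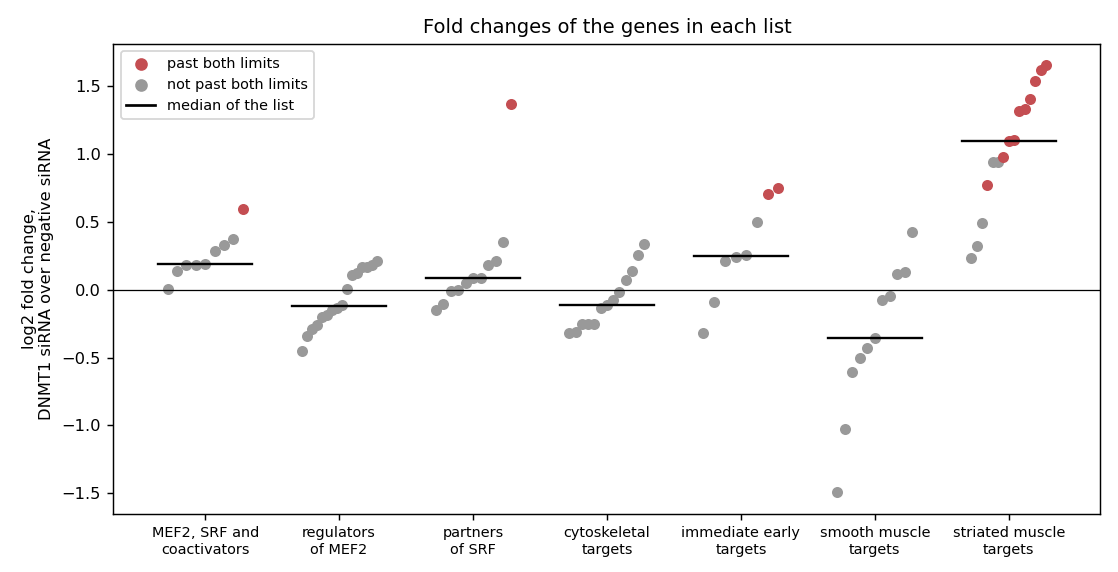
Log2 fold change of every tested gene (points) in the 10 chosen genes and in the lists of regulators, partners and targets, with the median of each list as a line. The median of the striated muscle targets is 1.09 and those of the cytoskeletal and smooth muscle targets are -0.11 and -0.36.

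CArG boxes were present both in targets that rose and in targets that did not. Among the genes of the lists with a RefSeq window, the box was found in 2 of 9 partners of SRF, in 5 of 11 cytoskeletal targets, in 1 of 5 immediate early targets, in 0 of 9 smooth muscle targets and in 3 of 14 striated muscle targets. Only 2 of the 4 smooth muscle markers, all of them in the smooth muscle list, had a window, and boxes that depart from the pattern were not searched for. The windows reach only 250 bases before the start, so boxes farther away or inside the gene were not seen. Of the genes with a box, Hopx, Actc1 and Myom1 were called upward. Fhl2, Actg1, Vcl, Cnn2, Myl9, Fhl1, Egr2 and Acta1 held a box and were not called. Fhl1 alone of those not called passed the p limit, and it alone of them is shown. The sites below are shown 5′ to 3′ with the box in capitals and 10 bases on either side, first those of the 3 genes that rose, Hopx (chr5:77115187-77115216, minus strand), Actc1 (chr2:114052903-114052932, minus strand) and Myom1 (chr17:71019448-71019477, plus strand, log2 fold change 0.98), and then that of Fhl1 (chrX:56779571-56779600, plus strand, log2 fold change -0.32), all GRCm38.p6.
Hopx: taacccgagtCCAAATAAGGaagctgggga
Actc1: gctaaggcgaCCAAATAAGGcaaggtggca
Myom1: gccttcctggCCATAAAAGGctggctgtgg
Fhl1: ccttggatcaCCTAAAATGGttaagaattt

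The boxes of Hopx and Actc1 are the same 10 bases, and the box of Myom1 is the same 10 bases as the box of Srf that begins 62 bases before its start. Srf, with the same letters as Myom1, differed by 0.14 on the log2 scale where Myom1 differed by 0.98.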

How the data were processed

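RNA-Seq libraries were made from poly(A) RNA of 6 cultures with a kit that does not mark strand and were sequenced in 1 pooled run. The authors checked the reads with FastQC, mapped them with TopHat2 to mm10 and used HTSeq to count reads on each Ensembl gene, as given in the paper's methods and the submitters' processing notes. The deposited values are raw counts, 1 table per culture, with no normalization. HTSeq's rows for reads outside exons, on more than 1 gene or mapped to several places were left out of library sizes, and the strand setting of the counting is not given in the sources used here.

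The test was run in edgeR 4.0.16 under R 4.3.3 (TMM normalization, filterByExpr with a minimum count of 10 and a minimum total of 15, quasi-likelihood F test of 3 against 3 cultures without a block, Benjamini-Hochberg adjustment over 15470 genes). A gene was called at an adjusted p below 0.05 and a fold change above 1.5. Standard errors came from the fold change and the F statistic. Log2 CPM used a prior count of 2, and RPKM used the merged exons of GENCODE M21 (GRCm38), which holds 42462 of the 43629 genes and is newer than the authors' annotation. Raw counts of the 9 detected genes were 182 to 7758 per library, which sets their counting error, and DESeq2 1.42.0 was an alternative. Shares were compared by exact permutation tests in Python 3.11.15 with scipy 1.17.1. A chi-square statistic between the counts of replicates was 2.89 to 59.7 per degree of freedom, so no replicate pair matched within sampling noise. The fit was tested on simulated data.

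Named genes were the 10 members, the DNMT genes, the 3 called genes with the largest change per direction in each list (or, where fewer than 2 were called, the 2 most abundant) and the 3 genes nearest to the member with the lowest adjusted p. Other genes named were chosen after their values were seen. The members and lists were chosen with earlier results of these data known. RefSeq supplied the promoter windows (GRCm38.p6), and coordinates are 1-based.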

Additional observations from a re-analysis of the deposited data

Results flagged for a closer look

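Reads that fell on more than 1 gene, which the counter sets aside and which enter no comparison, were 6.15% ± 0.175 of uniquely mapped reads with DNMT1 siRNA (SD, n = 3, range 6.02% to 6.35%), above the 3.62% ± 0.0341 of the negative siRNA cultures (range 3.58% to 3.65%). The groups did not overlap. Reads of Mef2d and of the other genes that share exon bases with a neighbour can be among those set aside, and the part of this difference in their fold changes was not tested.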

How the results depend on the processing

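The direction of 8 of the 9 detected genes was the same under all 12 alternatives, and Mef2c, which passed no limit, had the opposite sign in 4, at -0.0237 with no filter on low counts, -0.0926 without negative siRNA replicate 1, -0.0439 without replicate 3 and -0.0612 without DNMT1 siRNA replicate 1, and its range on leaving out a culture was -0.0926 to 0.173. Myocd passed both limits under 5 of the 12, Mkl1 kept an adjusted p below 0.05 under 9, and Camta2 and Mef2a reached it under 5 each. With 3 cultures per group and fold changes near 1.5, the count of members called upward, 1, became 0 with no filter and 3 with no limit on fold change, and was 0 to 1 on leaving out a culture. The count of genes called was 994 upward and 701 downward with no filter, and 1054 and 874 with no limit on fold change. Leaving out a culture gave 255 to 823 upward and 112 to 472 downward, and the counts were lowest without DNMT1 siRNA replicate 2 (255 and 112), beside 316 and 146 without replicate 1 and 314 and 145 without replicate 3. Of the 6 lists, 13 genes were called upward (7 to 16 on leaving out a culture) and 0 downward, which became 3 with no filter, 1 by DESeq2, 2 by the exact test, 4 with no limit on fold change and 0 to 4 on leaving out a culture. The causes were not tested.

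Samples with the same replicate number did not deviate together (correlations 0.00637, -0.0208 and 0.0274). No pairing by number was seen, though such correlations cannot exclude it. With the replicate number as a block, 513 genes were called upward and 285 downward, 0 members were called in either direction, and the lists gave 12 upward and 0 downward. Under the block Mkl1 had an adjusted p of 0.0342 and Camta2 one of 0.0816. The differences in family shares kept their sign on leaving out a culture, from 0.622 to 3.49 percentage points for Mef2a, -1.76 to -0.0704 for Mef2c, -1.74 to -0.207 for Mef2d, 2.14 to 5.75 for Myocd and -5.08 to -2.29 for Mkl2, except that of Mkl1, from -0.677 to 1.09. Camta1 had 182 raw reads in its lowest library, a counting error of 7.41%, beside a coefficient of variation of 32.9% among its controls. The depth of the DNMT1 siRNA libraries limits what can be said of Mef2b.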
